A study of Paeonia lactiflora with 9 samples.

Results

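In seeds of the herbaceous peony ‘Hangshao’, 9 unigenes were annotated to MCAT, KASIII, HAD and EAR, enzymes that start and run the fatty acid synthase cycle. They were taken from the study's own list of DEGs of lipid metabolism and matched by name to the deposited FPKM, a count of fragments divided by transcript length and by the mapped fragments of the library. There was 1 unigene for MCAT (Unigene20202_All), 1 for KASIII (Unigene37345_All), 4 for HAD (CL1701.Contig1_All, CL1701.Contig2_All, CL1701.Contig4_All and CL1701.Contig5_All) and 3 for EAR (CL5466.Contig2_All, CL7296.Contig2_All and CL7296.Contig3_All), out of 125685 unigenes in all. The KEGG definition matched the enzyme for each of the 9. Each of the 3 stages, 30, 60 and 90 days after flowering (DAF), was represented by 3 libraries. All were untreated seeds of 1 cultivar grown in 1 garden, and by the study's methods they came from the same plant, so the SDs and standard errors below need not cover the spread between plants. Whole seeds were used, so a lower FPKM through fewer cells that make a transcript and a lower FPKM through less of it in each cell cannot be told apart.

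The list was made by the study from DEGs between these same stages. The falls described below were therefore what brought the 9 unigenes together, and they are given as a description without p-values. Group I compares 60 with 30 DAF, Group II compares 90 with 60 DAF, and Group III compares 90 with 30 DAF. The 3 groups share libraries.

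Plants build fatty acids in the plastid on acyl carrier protein (ACP). MCAT (malonyl-CoA ACP transacylase) moves the malonyl group made by acetyl-CoA carboxylase onto ACP, and KASIII (3-oxoacyl-ACP synthase III) joins it to acetyl-CoA in the first condensation. Each turn of the cycle then has a reduction by KAR (3-oxoacyl-ACP reductase), a dehydration by HAD (3-hydroxyacyl-ACP dehydratase) and a final reduction of the double bond by EAR (enoyl-ACP reductase), and other condensing enzymes such as KASII lengthen the chain further.

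The assembled sequences of the 9 unigenes were not used here. The primers with which the study measured MCAT and KASIII by qRT-PCR were the only sequences at hand that the study assigns to these unigenes. They are shown with the unigene that the study names for each, and they were not aligned to the unigenes here. They are 18 or 19 bases long with 50% to 52.6% G and C, and they are written 5′ to 3′.
MCAT Unigene20202_All forward: aactcccgcaaactacac
MCAT Unigene20202_All reverse: gctatgaattgggacctg
KASIII Unigene37345_All forward: ctttcgctttgcttgtcg
KASIII Unigene37345_All reverse: tatcactcgttctggtggc

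The libraries were of similar depth, with relative depths of 0.871 to 1.07 estimated from the steps between low FPKM values. Pearson's r between libraries across unigenes, which are not independent replicates, was at least 0.939 among the 30 DAF libraries and 0.927 among the 60 DAF libraries, and lower, 0.814 to 0.856, among those of 90 DAF. The label of the tissue was checked on oil body proteins of seeds. The 6 oleosin (OLE) unigenes summed to 816 ± 84.9 FPKM at 30 DAF, 6556 ± 1990 FPKM at 60 DAF and 9813 ± 2632 FPKM at 90 DAF (SD, n = 3 each), and the 4 caleosin (CLO) unigenes averaged 452, 696 and 1333 FPKM at these stages. FPKM is a relative measure, and the part of these abundant transcripts in the values below was not tested.

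Among the sequenced stages, all 4 enzymes had their highest FPKM at 30 DAF and had lost most of what they would lose by 60 DAF. No library lies between 30 and 60 DAF, so a rise between these stages would not be seen. The study's qRT-PCR had a stage between them, at which it reported KASIII and most other measured genes to be highest. MCAT was measured too and is not among the exceptions that the study names. With the unigenes of an enzyme added up in each library, MCAT kept 32.7% of its 30 DAF mean at 60 DAF and 22.5% at 90 DAF, and KASIII kept 37.9% and 30.7%. HAD kept 24.2% at 60 DAF and 19.5% at 90 DAF. EAR fell furthest, to 12.8% at 60 DAF and 1.18% at 90 DAF, where its libraries had 0.15, 1.59 and 1.79 FPKM. With all contigs of its clusters, described below, EAR kept 15.6% at 60 DAF and 6.95% at 90 DAF. Of the whole loss to 90 DAF, 86.9% had taken place by 60 DAF for MCAT, 89.6% for KASIII, 94.2% for HAD and 88.2% for EAR. These shares depended on the scaling between stages, and with median-of-ratios scaling they were 70.7% for MCAT, 66.8% for KASIII, 81.6% for HAD and 83.7% for EAR. Together the 9 unigenes summed to 242 ± 7.08 FPKM at 30 DAF, 55.2 ± 5.11 FPKM at 60 DAF and 34.7 ± 3.29 FPKM at 90 DAF (SD, n = 3 each).

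**Figure D1:**
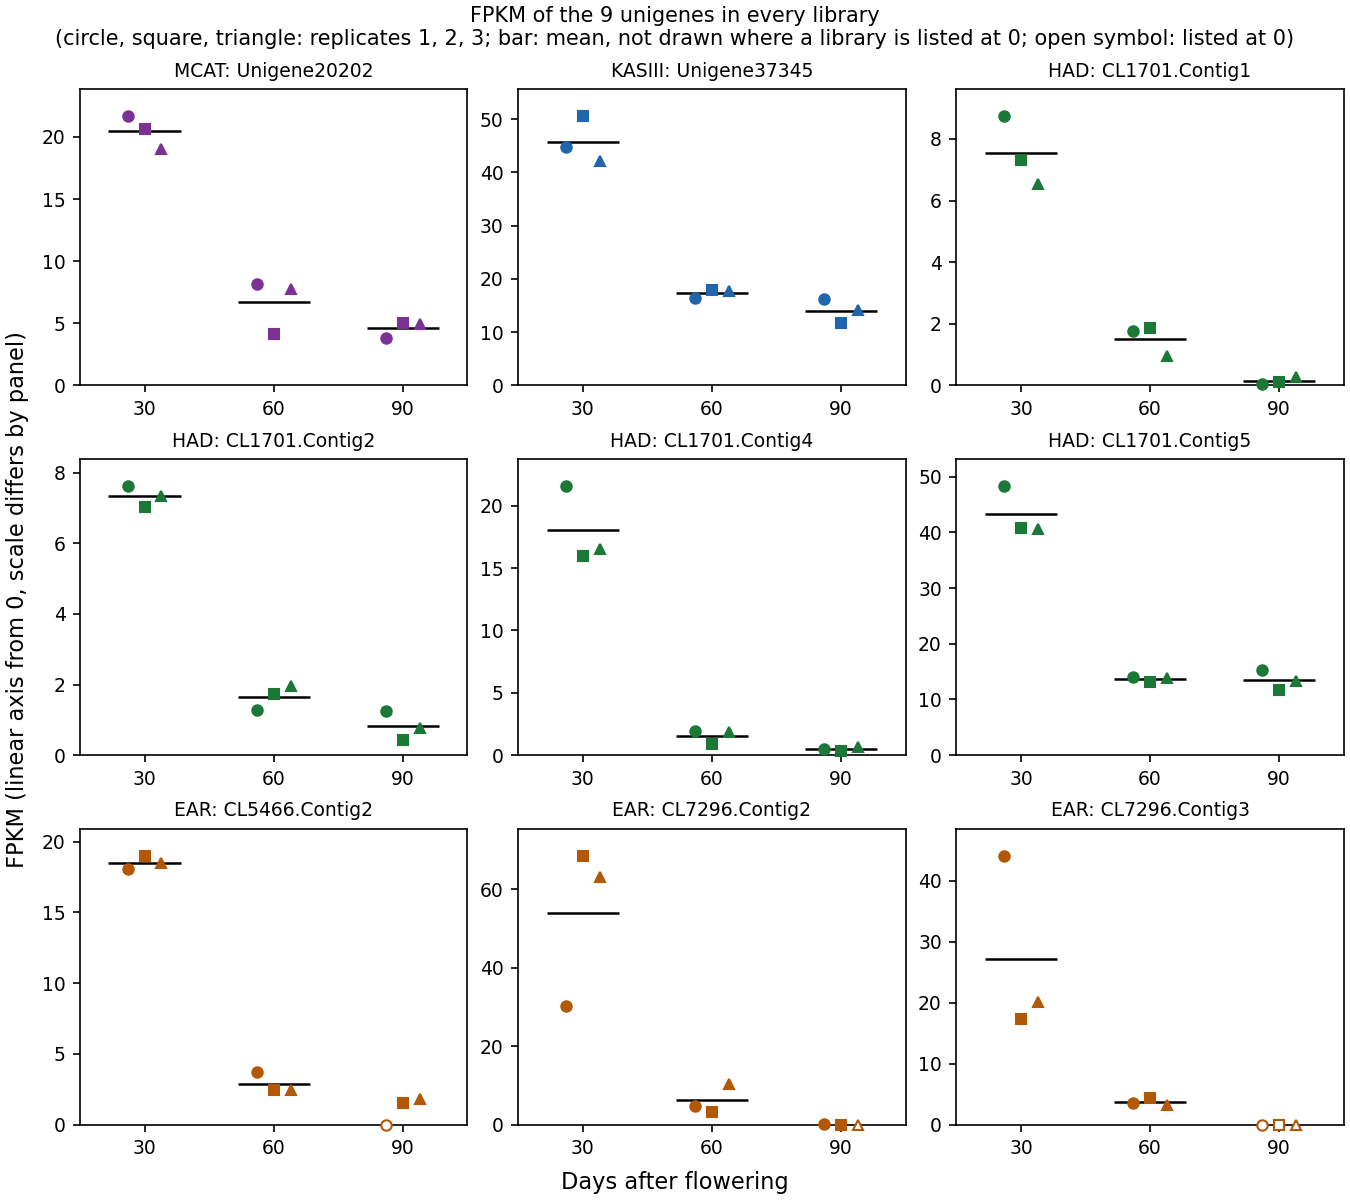
FPKM (vertical axes, linear from 0 and scaled by panel) of the 9 unigenes at 30, 60 and 90 DAF (horizontal axes), with 1 symbol for each of the 3 libraries of a stage and a bar at their mean where no library was listed at 0. In every panel the 30 DAF libraries stand above all libraries of 60 and 90 DAF, whereas 60 and 90 DAF overlap for MCAT and for CL1701.Contig5_All.

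With unigenes summed by enzyme, MCAT had the lowest FPKM of the enzymes at 30 and 60 DAF. Unigene20202_All had 21.65, 20.62 and 19.04 FPKM at 30 DAF, 8.13, 4.15 and 7.75 FPKM at 60 DAF, and 3.79, 5.06 and 4.94 FPKM at 90 DAF. The 3 libraries of 30 DAF were above all others, while the 60 and 90 DAF libraries overlapped because replicate 2 of 60 DAF lay below 2 of the 90 DAF libraries. The means were 20.4 ± 1.31, 6.68 ± 2.20 and 4.60 ± 0.701 FPKM at the successive stages (SD, n = 3 each). On the log2(FPKM + 0.5) scale the change was -1.60 (standard error 0.25) in Group I, with -0.45 in Group II and -2.05 in Group III. At 30 DAF the mean was above that of 91.7% of the 55192 unigenes that reached 0.5 FPKM in at least 3 libraries, and at 90 DAF above that of 73.7%.

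By the stage means of the listed unigenes, KASIII kept the largest share of its FPKM among the 4 enzymes. The libraries did not separate it from MCAT in this, as described below for their ratio. The HAD unigene CL1701.Contig5_All alone kept 31.1% of its 30 DAF mean at 90 DAF, against 30.7% for KASIII. Unigene37345_All had 44.67, 50.51 and 42.09 FPKM at 30 DAF, 16.44, 17.95 and 17.65 FPKM at 60 DAF, and 16.20, 11.73 and 14.23 FPKM at 90 DAF. Each stage lay below the one before it without overlap, but 60 and 90 DAF were close, with 16.20 FPKM as the highest value of 90 DAF and 16.44 as the lowest of 60 DAF. The means were 45.8 ± 4.31, 17.3 ± 0.799 and 14.1 ± 2.24 FPKM (SD, n = 3 each). The log2 change was -1.37 (standard error 0.15) in Group I, with -0.30 in Group II and -1.68 in Group III, whereas with median-of-ratios scaling it was -0.96 in Group I and -0.91 in Group II, and with quantile normalization -1.001 in Group I and -0.69 in Group II. Unigene37345_All was still above 88.3% of the tested unigenes at 90 DAF, and it had the highest FPKM of the 9 unigenes at 60 and 90 DAF, although at 90 DAF its libraries overlapped those of the HAD unigene CL1701.Contig5_All.

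The 4 HAD unigenes are contigs of 1 assembly cluster of similar transcripts, CL1701, and they did not fall alike. CL1701.Contig5_All was the main one, with 48.33, 40.85 and 40.68 FPKM at 30 DAF, 14.10, 13.20 and 13.76 FPKM at 60 DAF, and 15.35, 11.76 and 13.23 FPKM at 90 DAF. It was lower at both later stages than at 30 DAF, and on the deposited FPKM the libraries of 60 and 90 DAF overlapped. Its log2 change was -1.62 (standard error 0.14) in Group I, with -0.032 in Group II and -1.65 in Group III, and the value in Group II turned to 0.057 without replicate 2 of 90 DAF. With median-of-ratios scaling the value in Group II was -0.64, and with quantile normalization it was -0.41.

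CL1701.Contig4_All, with 21.58, 15.93 and 16.56 FPKM at 30 DAF, had only 1.96, 0.92 and 1.82 FPKM at 60 DAF, and 0.46, 0.33 and 0.66 FPKM at 90 DAF. This was the steepest fall of the 9 unigenes in Group I, with a log2 change of -3.19 (standard error 0.27), next to -3.08 (standard error 0.43) for the EAR unigene CL7296.Contig2_All, a difference within these errors. It went on to -1.04 in Group II and -4.24 in Group III.

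The other HAD contigs had the lowest FPKM of the 9 unigenes at 30 DAF. CL1701.Contig1_All had 8.73, 7.33 and 6.52 FPKM at 30 DAF, 1.76, 1.85 and 0.95 FPKM at 60 DAF, and 0.05, 0.10 and 0.26 FPKM at 90 DAF. CL1701.Contig2_All had 7.63, 7.03 and 7.35 FPKM at 30 DAF, 1.29, 1.72 and 1.96 FPKM at 60 DAF, and 1.24, 0.42 and 0.77 FPKM at 90 DAF. The stages did not overlap for either contig. They were alike at 30 and 60 DAF, and at 90 DAF every library had less of CL1701.Contig1_All, whose log2 change in Group II was -1.65 against -0.76 for CL1701.Contig2_All.

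By its listed unigenes, EAR had the highest summed FPKM of the 4 enzymes at 30 DAF and the lowest at 90 DAF. CL7296.Contig2_All had 30.18, 68.60 and 63.06 FPKM at 30 DAF, 4.83, 3.35 and 10.46 FPKM at 60 DAF, and 0.15, 0.04 and 0 FPKM at 90 DAF. CL7296.Contig3_All, of the same cluster, had 44.10, 17.27 and 20.16 FPKM at 30 DAF, 3.58, 4.29 and 3.23 at 60 DAF, and was listed at 0 in all 3 libraries of 90 DAF. The stages did not overlap for either contig, and no fold is given against stages with values of 0. The log2 changes, which depend on the 0.5 added, were -3.08 and -2.60 in Group I, then -3.44 and -3.06 in Group II, and -6.52 and -5.67 in Group III for CL7296.Contig2_All and CL7296.Contig3_All in this order.

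The 2 contigs of CL7296 varied against each other at 30 DAF. Replicate 1 had the lowest value of CL7296.Contig2_All and the highest of CL7296.Contig3_All. The SD over the 3 libraries was 38.5% of the mean for CL7296.Contig2_All and 54.2% for CL7296.Contig3_All, whereas their sum, 74.28, 85.87 and 83.22 FPKM, had an SD of 7.49% of its mean. At 30 DAF the sum was thus steadier than either contig. At 60 DAF its SD was 33.2% of its mean, between 60.4% for CL7296.Contig2_All and 14.6% for CL7296.Contig3_All. RSEM can divide reads between similar contigs, and the part of this in the spread was not tested.

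The remaining EAR unigene, CL5466.Contig2_All, had 18.07, 19.01 and 18.47 FPKM at 30 DAF, 3.70, 2.43 and 2.45 FPKM at 60 DAF, and 0, 1.55 and 1.79 FPKM at 90 DAF. It kept its FPKM better at 90 DAF than the contigs of CL7296 in replicates 2 and 3, but it was listed at 0 in replicate 1. Its log2 change was -2.52 (standard error 0.52) in Group I, with -1.32 in Group II and -3.84 in Group III, and without replicate 1 of 90 DAF it was -0.61 in Group II and -3.13 in Group III. In that library 1065 unigenes had at most 0.1 FPKM while both other libraries had at least 1, against 719 in replicate 2 and 810 in replicate 3.

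By the criteria of a log2 change of at least 1 and an adjusted p of at most 0.05 in limma, 9 of the 9 unigenes were lower at 60 DAF in Group I, where 6.33% of all tested unigenes were. In Group II 4 of the 9 were lower at 90 DAF (background 9.41%), namely CL1701.Contig1_All, CL1701.Contig4_All, CL7296.Contig2_All and CL7296.Contig3_All. In Group III 9 of the 9 were lower at 90 DAF (background 16.5%). None was higher in any group, with backgrounds of 1.72%, 18.2% and 13.7% in the order of the groups. Libraries of the later stage were all lower, without overlap, for 9 unigenes in Group I (background 29.9%), 7 in Group II (14.9%) and 9 in Group III (23.5%). As the list was chosen on these contrasts, nothing follows from the counts.

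The call in Group I of CL5466.Contig2_All was lost without any 1 of the 3 libraries of 30 DAF and without replicate 2 or 3 of 60 DAF, with log2 changes of -2.54 to -2.43, and with 0.1 in place of 0.5 added before the logarithm (-2.68). That of CL1701.Contig4_All in Group II was lost without replicate 1 or 3 of 60 DAF or replicate 2 of 90 DAF, at -0.94 to -0.90. It was also lost with 1 added before the logarithm (-0.77). At an adjusted p of at most 0.01, both this call and that of CL5466.Contig2_All in Group I were lost. CL5466.Contig2_All was called in Group II without replicate 3 of 90 DAF, at -1.71. With median-of-ratios scaling 7 of the 9 were called in Group II, and with quantile normalization 6. With 0.1 added 5 were called there, and 3 with 1 added or at an adjusted p of at most 0.01. Over all tested unigenes in Group II, 10034 were higher and 5196 lower on the deposited FPKM. With median-of-ratios scaling 4139 were higher and 7809 lower, and with quantile normalization 6320 and 6477. The study's own DEGs of this group were more often lower than higher at 90 DAF. With the FPKM of all contigs of a cluster added up before the test, CL1701 changed by only -0.098 in Group II and was not called.

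The median change over all tested unigenes was -0.31 in Group I, with 0.36 in Group II and 0.064 in Group III, so changes are also given relative to it. On that basis, MCAT changed by -1.29 in Group I, with -0.81 in Group II and -2.11 in Group III, and KASIII by -1.07, -0.66 and -1.74. CL1701.Contig5_All changed by -1.32, -0.39 and -1.72, and CL7296.Contig2_All by -2.77, -3.80 and -6.58. The median change of the 9 unigenes was -2.01 in Group I, with -1.04 in Group II and -3.66 in Group III before this median was taken off.

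**Figure D2:**
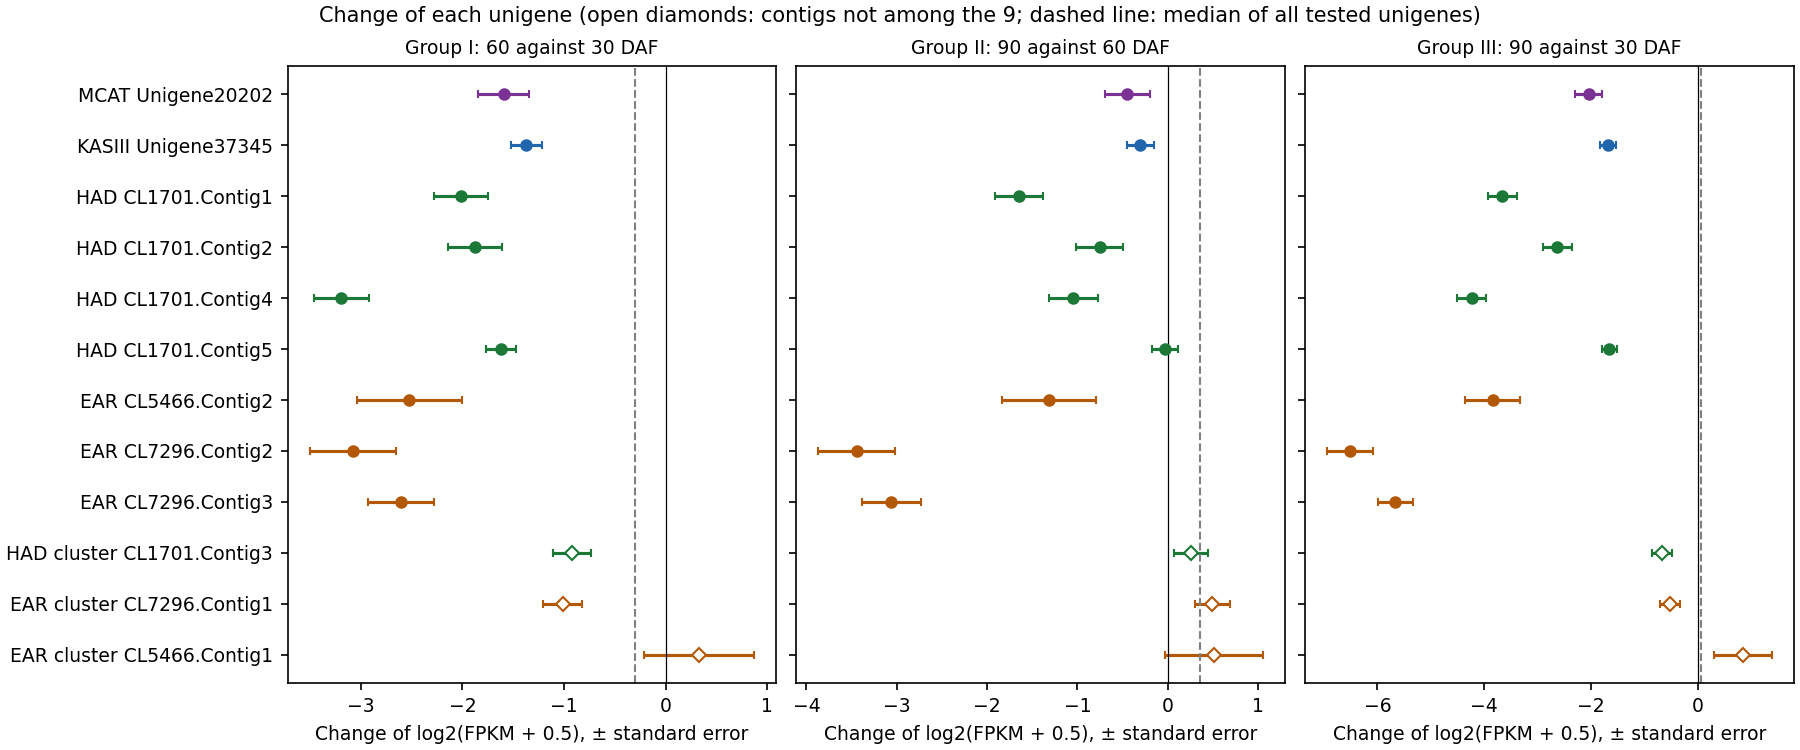
Change of log2(FPKM + 0.5), later minus earlier stage (horizontal axes), with its standard error for the 9 unigenes (filled circles) and for 3 other contigs of their clusters (open diamonds) in Groups I, II and III. All filled circles lie left of the dashed line, the median of all tested unigenes at -0.31, 0.36 and 0.064, and the listed contigs of CL7296 lie farthest left in Groups II and III.

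Relative to KASIII, EAR became lower with the stage. MCAT over KASIII overlapped between the stages. HAD over KASIII set 30 DAF apart from the later stages only with the listed unigenes added up. These unigenes were listed for changes between these same stages. FPKM is per length, so summed levels can be set side by side, but they depend on how many unigenes are added. HAD has 4 and EAR 3, against 1 each for MCAT and KASIII. The study warns that some unigenes may be pieces of 1 gene, so a sum can count a gene more than once. With the highest unigene only, HAD over KASIII averaged 0.952 at 30 DAF in place of 1.68, and EAR over KASIII 1.18 in place of 2.19. With the listed unigenes, the order at 30 DAF was EAR with 99.6 ± 6.51 FPKM, HAD with 76.2 ± 8.74, KASIII with 45.8 ± 4.31 and MCAT with 20.4 ± 1.31 (SD, n = 3 each), and no library of 1 enzyme overlapped those of the next. At 60 DAF HAD had 18.4 ± 0.712 and KASIII 17.3 ± 0.799, which overlapped, followed by EAR with 12.8 ± 3.09 and MCAT with 6.68 ± 2.20, which did not overlap. At 90 DAF HAD with 14.9 ± 2.25 and KASIII with 14.1 ± 2.24 again overlapped. MCAT, with 4.60 ± 0.701 FPKM, was now above EAR, which had 0.15, 1.59 and 1.79 FPKM in the 3 libraries. The order turned in part when the unlisted contigs of the HAD and EAR clusters, described below, were added. EAR and HAD then overlapped at 30 DAF, HAD was above KASIII in all libraries of 60 and 90 DAF, and at 90 DAF EAR had 4.91, 8.62 and 8.82 FPKM, against 3.79, 5.06 and 4.94 FPKM for MCAT.

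**Figure D3:**
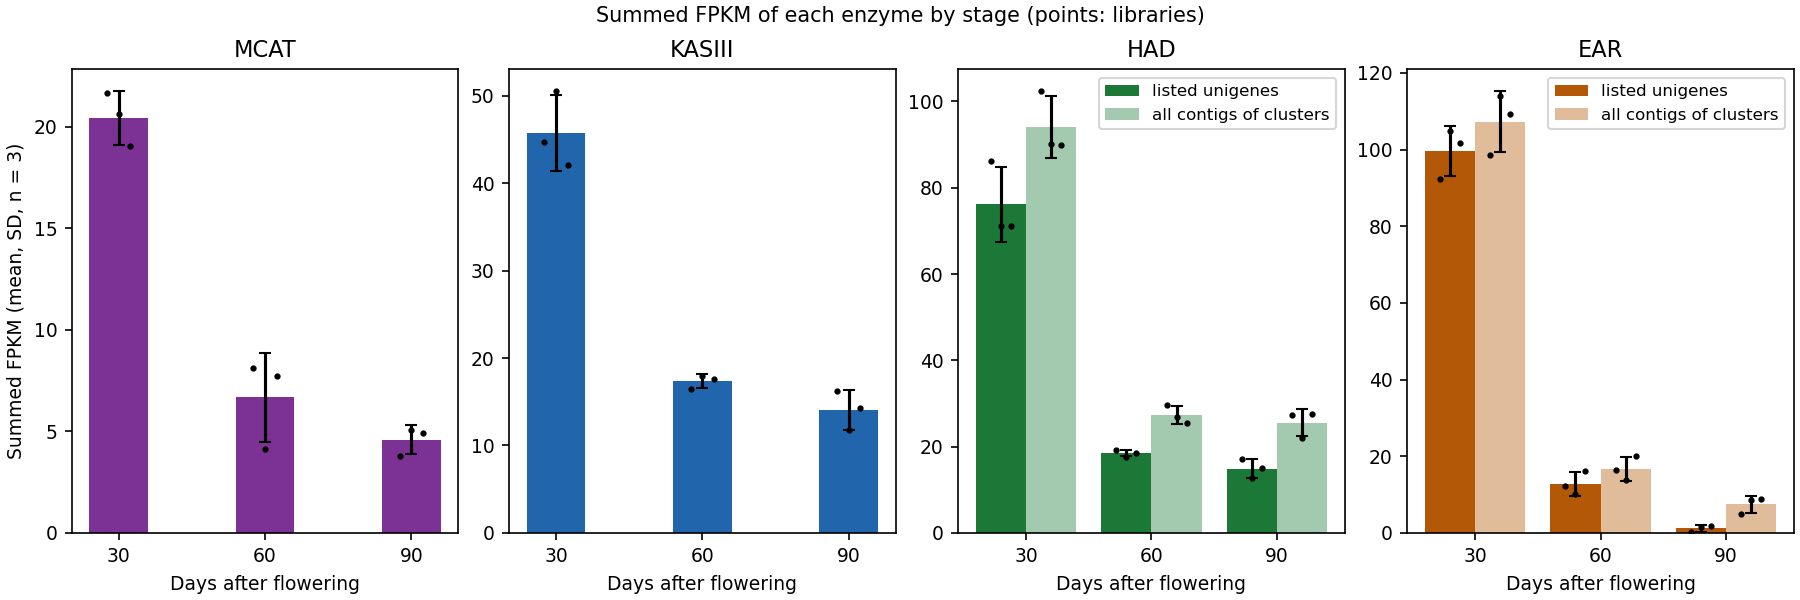
Summed FPKM (vertical axes, from 0) of MCAT, KASIII, HAD and EAR at 30, 60 and 90 DAF, as means with SD (n = 3) and a point for each library. Dark bars add the 9 listed unigenes, and pale bars add all contigs of the HAD and EAR clusters, which leaves 25.6 FPKM for HAD and 7.45 for EAR at 90 DAF in place of 14.9 and 1.18. The annotation of the contigs not listed was not used.

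A ratio within a library does not depend on the scaling between libraries. MCAT over KASIII had a mean of 0.448 ± 0.0384 at 30 DAF, a mean of 0.388 ± 0.139 at 60 DAF and one of 0.337 ± 0.0991 at 90 DAF (SD, n = 3 each). The libraries of the 3 stages overlapped, so MCAT and KASIII fell by shares that these libraries did not separate. HAD over KASIII was 1.93, 1.41 and 1.69 in the libraries of 30 DAF, 1.16, 0.986 and 1.05 in those of 60 DAF, and 1.06, 1.08 and 1.05 in those of 90 DAF. It was lower in every library of 60 and 90 DAF than at 30 DAF and overlapped between the last 2 stages. This separation was lost with all contigs of the cluster, where the ratio was 1.78 to 2.29 at 30 DAF and reached 1.81 at 60 DAF and 1.93 at 90 DAF, and with CL1701.Contig5_All alone, which averaged 0.952, 0.791 and 0.960 at the successive stages.

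EAR over KASIII was 2.07, 2.08 and 2.42 in the libraries of 30 DAF, 0.737, 0.561 and 0.914 in those of 60 DAF, and 0.00926, 0.136 and 0.126 in those of 90 DAF. The stages were far apart and did not overlap. Without replicate 1 of 90 DAF, where CL5466.Contig2_All was listed at 0, the 90 DAF mean was 0.131 in place of 0.0902. The contigs that the list left out moved these ratios, as described next.

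**Figure D4:**
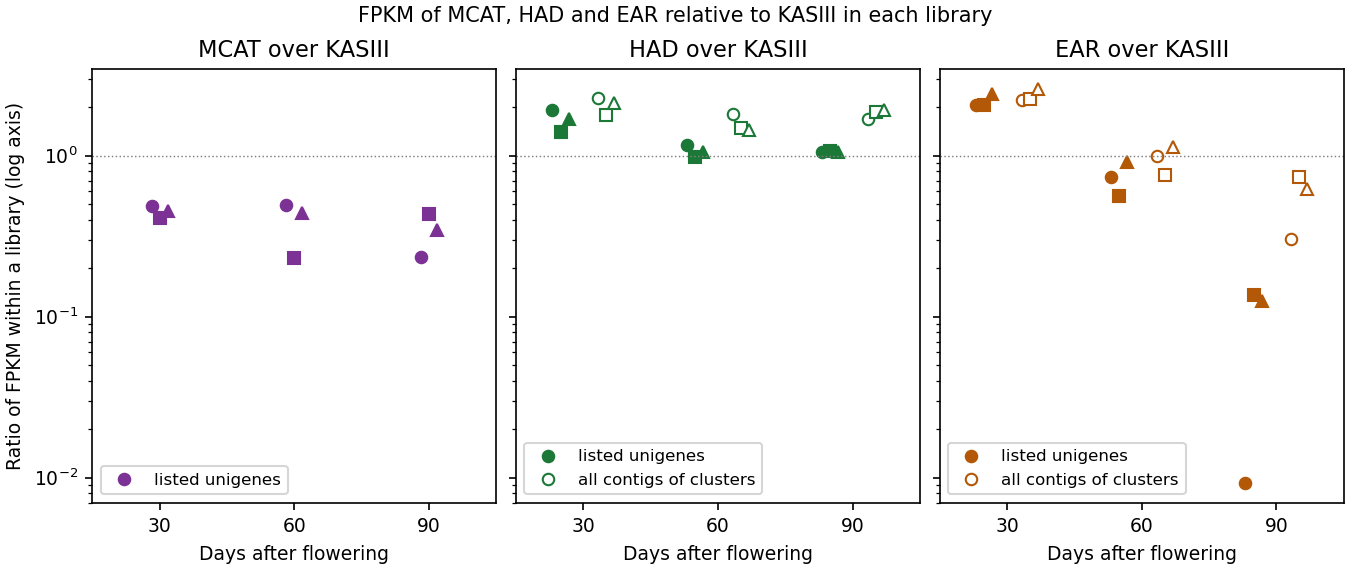
FPKM of MCAT, HAD and EAR divided by that of KASIII in the same library (vertical axis, logarithmic) at 30, 60 and 90 DAF, with 1 symbol per library. Filled symbols use the listed unigenes and open symbols all contigs of the clusters, for which EAR over KASIII at 90 DAF averaged 0.553 in place of 0.0902 and HAD over KASIII 1.83 in place of 1.06. The annotation of the contigs not listed was not used.

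The 3 clusters hold 4 more contigs that the list did not name. Their annotation was not used here, so they are called by their cluster. CL1701 has 6 contigs of which 4 are listed, CL7296 has 3 of which 2 are listed, and CL5466 has 2 of which 1 is listed. By its methods the study kept DEGs past a fold change between stages and removed those of the same sequence within an enzyme. Which of these steps left out the 4 contigs was not examined here, so their changes are no independent contrast to those of the 9.

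CL1701.Contig3_All had 15.62, 18.40 and 17.34 FPKM at 30 DAF, 10.59, 9.05 and 7 FPKM at 60 DAF, and 10.14, 9.36 and 12.53 FPKM at 90 DAF. It was lower at both later stages than at 30 DAF without overlap, and 60 and 90 DAF overlapped. Its log2 change was -0.92 in Group I (standard error 0.19, adjusted p = 0.0146 in limma), short of the fold required, and -0.66 in Group III (adjusted p = 0.0214), also short of it. In Group II it was 0.26 (adjusted p = 0.315), and this turned to -0.34 with median-of-ratios scaling and to -0.094 with quantile normalization. Without replicate 1 of 60 DAF the change in Group I was -1.05 and met both criteria.

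CL7296.Contig1_All had 5.68, 8.83 and 7.07 FPKM at 30 DAF, 3.33, 2.98 and 3.47 FPKM at 60 DAF, and 4.66, 4.48 and 5.25 FPKM at 90 DAF. All libraries of 90 DAF lay between those of the other stages. The log2 change was -1.01 in Group I (standard error 0.19, adjusted p = 0.0107 in limma), which met the criteria, 0.49 in Group II (adjusted p = 0.0738) and -0.52 in Group III (adjusted p = 0.0597). The call in Group I was lost with either other scaling (-0.64 and -0.66), with 1 added before the logarithm (-0.93), and without replicate 2 (-0.87) or 3 (-1.02) of 30 DAF or replicate 2 (-0.96) of 60 DAF, and the change in Group II was -0.065 with median-of-ratios scaling.

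CL5466.Contig1_All was low, with 0.46, 0.29 and 0.46 FPKM at 30 DAF, 0.87, 0.62 and 0.44 FPKM at 60 DAF, and 0.10, 2.55 and 1.78 FPKM at 90 DAF. The stages overlapped, and the log2 changes of 0.33, 0.51 and 0.84 in Groups I, II and III had adjusted p = 0.763, 0.502 and 0.260 in limma. Without replicate 1 of 90 DAF, the library in which both contigs of CL5466 were at or near 0, it was called higher in Group II (1.22) and in Group III (1.55). CL1701.Contig6_All had 0.46, 0.50 and 1.39 FPKM at 30 DAF, was listed at 0 in the other 6 libraries, and did not pass the filter. Without the filter it was called lower in Groups I and III (-1.29 in both).

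The list was chosen on changes between these same stages, so the shares below are a description and nothing follows from their fall. The listed contigs held a smaller share of their cluster at each later stage. In CL7296 they took 91.9% of the FPKM of the cluster at 30 DAF, but 74.5% at 60 DAF and 1.33% at 90 DAF, as CL7296.Contig1_All was left with 98.7% of it. In CL5466 the listed contig took 97.9% at 30 DAF, 81.8% at 60 DAF, and 0%, 37.8% and 50.1% in the 3 libraries of 90 DAF. In CL1701 the listed contigs took 80.8%, 67.7% and 58.2% at the successive stages.

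Within CL1701 the share of CL1701.Contig5_All was 46.0% at 30 DAF, with 50.3% at 60 DAF and 52.7% at 90 DAF, while that of CL1701.Contig4_All was 19.1%, 5.73% and 1.87%. The share of the unlisted CL1701.Contig3_All was 18.3%, 32.3% and 41.8%. At 90 DAF CL1701.Contig5_All and CL1701.Contig3_All thus made up nearly all of the cluster.

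**Figure D5:**
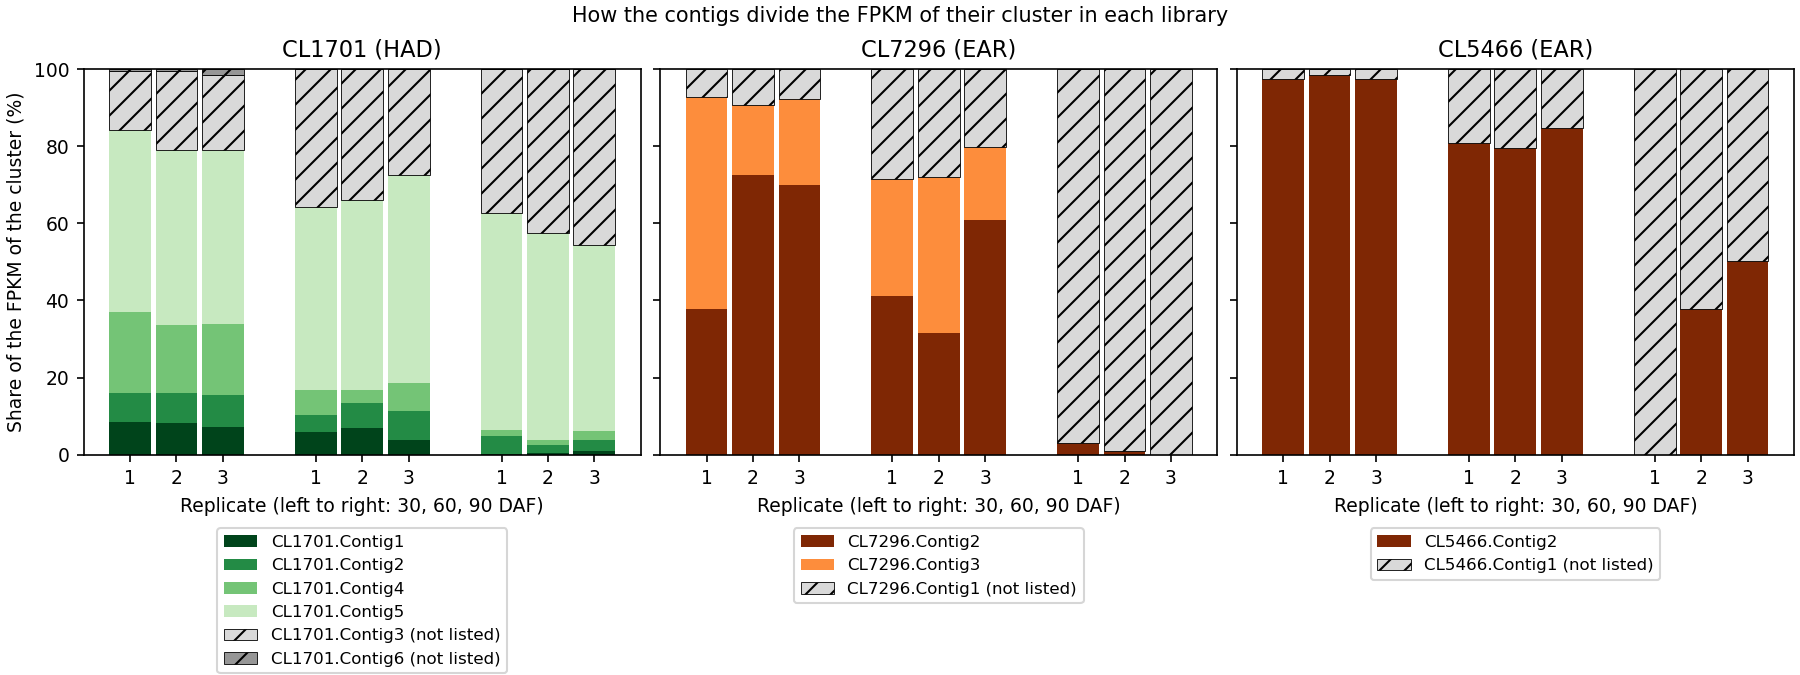
Share of each contig in the FPKM of its cluster (vertical axis, percent) in the 9 libraries, grouped from left to right as 30, 60 and 90 DAF, for CL1701, CL7296 and CL5466. Solid colours are listed contigs and hatched grey those not listed, and the hatched share of CL7296 goes to 98.7% on average at 90 DAF. The listed contigs were chosen on changes between these stages.

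Counted over all contigs, the clusters fell less. CL1701 summed to 94.1 ± 7.17 FPKM at 30 DAF, 27.3 ± 2.16 FPKM at 60 DAF and 25.6 ± 3.11 FPKM at 90 DAF (SD, n = 3 each), so that it kept 29.0% and 27.2% of its 30 DAF mean, against 37.9% and 30.7% for KASIII. CL7296 summed to 88.3 ± 7.57, 13.2 ± 3.50 and 4.86 ± 0.368 FPKM. Both EAR clusters together had 107, 16.7 and 7.45 FPKM and kept 15.6% at 60 DAF and 6.95% at 90 DAF. This was still the smallest share of the 4 enzymes. It includes the unlisted CL7296.Contig1_All and CL5466.Contig1_All, with 4.80 and 1.48 FPKM at 90 DAF, whose annotation was not used here. With all contigs, EAR over KASIII was 2.35 at 30 DAF, against 0.963 at 60 DAF and 0.553 at 90 DAF, and HAD over KASIII was 2.07, 1.58 and 1.83.

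The rest of the pathway is given from the same list of the study, again chosen on these libraries. It holds 30 other unigenes of fatty acid biosynthesis, of which 29 passed the filter. In Group I 16 were lower and 1 higher at 60 DAF (backgrounds 6.33% and 1.72%). In Group II 10 were lower and 5 higher at 90 DAF (9.41% and 18.2%). In Group III 21 were lower and 5 higher at 90 DAF (16.5% and 13.7%). With median-of-ratios scaling or quantile normalization 10 were lower and 1 higher in Group I. Their median change was -1.16, -0.80 and -2.11 in Groups I, II and III, against -2.01, -1.04 and -3.66 for the 9 unigenes.

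The acetyl-CoA carboxylase subunits, which make malonyl-CoA ahead of MCAT, fell in most cases. In Group III all 5 BC (biotin carboxylase), all 3 α-CT (carboxyl transferase subunit alpha) and 6 of 7 BCCP (biotin carboxyl carrier protein) unigenes were lower at 90 DAF, with 1 BCCP higher. Over all tested unigenes 16.5% were lower and 13.7% higher in Group III, to which the counts below also belong. KASII, which carries out a late condensation, was lower for 3 of 4 unigenes. KAR, which acts just before HAD in each turn, went both ways, with 4 of 8 unigenes higher and 2 lower. The thioesterases FATA and FATB, which release the finished chain from ACP, had 1 of 1 and 1 of 1 tested unigenes lower.

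The unigenes whose FPKM ran most alike with the highest unigene of each enzyme were sought among 106 other tested unigenes of the list, by Pearson's r of log2(FPKM + 0.5) over the 9 libraries. The stages differ throughout, so high values are common, and r is a description only. For EAR CL7296.Contig2_All they were the BC unigene CL6932.Contig4_All (r = 0.993; stage means of 38.0, 8.20 and 1.80 FPKM at 30, 60 and 90 DAF) and the BCCP unigene CL14917.Contig1_All (r = 0.991; 39.2, 9.23 and 2.08 FPKM), while the median r over all 106 was 0.796. For KASIII they were the α-CT unigene CL5887.Contig1_All (r = 0.979; 65.3, 21.0 and 12.9 FPKM) and the KCS unigene Unigene20808_All (r = 0.978), with a median r of 0.709. KCS is the condensing enzyme of fatty acid elongation outside the plastid.

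For HAD CL1701.Contig5_All they were the KCS unigenes CL14705.Contig2_All (r = 0.986; 11.9, 0.0967 and 0.267 FPKM) and Unigene20808_All (r = 0.981), with a median r of 0.588. For MCAT they were the KCS unigenes Unigene20808_All and Unigene1248_All (both r = 0.964), with a median r of 0.673. Unigene20808_All and Unigene1248_All were low even at 30 DAF, with means of 0.913 and 0.677 FPKM, and were listed at 0 in every library of 90 DAF.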

How the data were processed

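The authors filtered reads of oligo(dT)-selected mRNA, assembled unigenes without a genome, mapped each library to them with Bowtie2 and estimated expression with RSEM, and the FPKM they deposited are used here. The sources used here give no versions of Bowtie2 or RSEM. Columns were assigned to stage and replicate by name, and 9 lines without a unigene were left out. FPKM are not counts, so log2(FPKM + 0.5) was tested for the 55192 unigenes that reached 0.5 FPKM in 3 or more of the 9 libraries, using limma 3.58.1 (R 4.3.3) and 1 model of the 3 stages, with a variance trend and Benjamini-Hochberg adjustment over all tested unigenes. Adding 0.5 understates changes of low unigenes. A call needed a fold of at least 2 and an adjusted p of at most 0.05. Sums, ratios and shares were computed per library with pandas 2.3.3 and numpy 2.4.6 under Python 3.11.15, and plotted with matplotlib 3.10.9. The study gives the clean reads of each library, which were close to one another, and relative depth was estimated here from the steps between low FPKM values. Mapped fragments and unigene lengths were not used here, so no counting interval is given.

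The text names all 9 unigenes, the other contigs of their clusters and, for the highest unigene of each enzyme, the 2 most alike of the study's list. The members and lists were chosen with earlier results of these data known. Results were recomputed with 0.1 or 1 added, without a filter or with one at 1 FPKM, after median-of-ratios scaling or quantile normalization, with a fit of just the 2 stages in question, with replicate numbers as blocks, without the trend, with robust moderation, on cluster sums, with an adjusted p of at most 0.01 and without each library, and for sums, ratios and shares the median, other sets of contigs and the ratio of stage means.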

Additional observations from a re-analysis of the deposited data

How the results depend on the processing

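Every one of the 9 unigenes kept its direction in Groups I, II and III under all alternatives, except CL1701.Contig5_All in Group II (-0.13 to 0.057 with a library left out, positive only without replicate 2 of 90 DAF, and -0.032 with all). Of the log2 changes of the 9 unigenes and the 3 tested contigs of their clusters, 708 values under the alternatives stayed on their side of the criteria, 22 fell short, 10 newly met them and 4 turned. The other turned values were CL1701.Contig3_All in Group II (-0.34 with median-of-ratios scaling, -0.094 with quantile normalization) and CL7296.Contig1_All in Group II (-0.065 with median-of-ratios scaling). KASIII missed the fold in Group I with median-of-ratios scaling (-0.96). For all tested unigenes that scaling gave 1534 higher and 1960 lower in Group I and 4139 higher and 7809 lower in Group II, quantile normalization 1637 and 1977 in Group I and 6320 and 6477 in Group II, against 947 and 3496 in Group I and 10034 and 5196 in Group II on the deposited FPKM, and the cause was not tested.

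Calls among the 9 in Group II were 7 with median-of-ratios scaling and 6 with quantile normalization. They were 5 with 0.1 added, and 3 with 1 added or at an adjusted p of at most 0.01. Cluster sums leave 5 units by construction, with 5, 1 and 5 calls in Groups I, II and III. Leaving out a library gave 8 to 9, 3 to 5 and 9 calls. Calls among the 3 unlisted contigs in Group I were 0 with 1 added, either other scaling or an adjusted p of at most 0.01, and 0 to 2 with a library left out. In Groups II and III they were 0 to 1 with a library left out. Without a filter 4 unlisted contigs were tested, with 2 calls in Group I and 1 in Group III, the added call in each being CL1701.Contig6_All. In the rest of the pathway, calls in Group I were 11 with either scaling in place of 17, and cluster sums gave 17 of 19 units in Group III in place of 26 of 29.

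With median-of-ratios scaling MCAT had 18.8 FPKM at 30 DAF and 3.64 at 90 DAF, KASIII 21.2 at 60 DAF and 11.05 at 90 DAF, HAD 22.5 at 60 DAF and 11.7 at 90 DAF, and EAR 91.1 at 30 DAF. Adding all contigs of the clusters gave HAD 94.1, 27.3 and 25.6 FPKM and EAR 107, 16.7 and 7.45 FPKM at 30, 60 and 90 DAF, HAD over KASIII of 2.07, 1.58 and 1.83, and EAR over KASIII of 0.963 at 60 DAF and 0.553 at 90 DAF. With the highest unigene only, HAD over KASIII was 0.952, 0.791 and 0.960, and EAR over KASIII 1.18, 0.358 and 0.00422. These follow from which contigs are added. In all, 223 sums, ratios and shares moved by less than 1 SD and 41 by more. Shares of all listed contigs with the listed contigs as the total, and unlisted contigs under cluster sums, have no value.

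Libraries with the same replicate number did not deviate together across stages, with r of -0.160 to 0.128 for equal and -0.130 to 0.179 for other numbers, and in 3 of 18 pairs of a library and another stage the best match was its own number. With the replicate number as a block, calls among the 9 were 9, 4 and 9, calls among the unlisted contigs 1, 0 and 0, and calls in the rest of the pathway 16, 15 and 26, and over all tested unigenes in Group I 770 were higher and 2732 lower. Depth limits the values under 1 FPKM at 90 DAF, where a 0 is no proof of absence.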
